A study of Mus musculus with 9 samples.

Results

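The epicardium is the mesothelial sheet that covers the heart, and 10 of its marker genes are described here in late fetal mouse ventricle. They were taken as every probe set that the platform annotation assigns to Tbx18, Wt1, Tcf21, Aldh1a2, Upk3b, Upk1b, Msln, Bnc1, Krt19 or Lrrn4, 10 of 18193 genes that the array names, read by 16 of its 45037 probe sets other than controls. The samples were cardiac ventricles of male mouse fetuses at E18.5, late in gestation, 3 arrays for each Esrrg genotype. Esrrg encodes the orphan nuclear receptor ERRγ. The genotypes were ERRg +/+ (here WT), ERRg +/- (HET) and ERRg -/- (KO), and HET and WT serve as the references for KO. The labels speak of biological replicates and of 3 ventricles, and leave open whether an array held 1 sample or a pool of 3. So p-values measure the spread between arrays. Strain, and how the allele was altered, are not given in the sources used here.

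Epicardial cells arise from the proepicardium, migrate over the myocardium, and in part undergo an epithelial-mesenchymal transition that yields fibroblasts and mural cells of the coronary vessels. The transcription factors Wt1, Tbx18 and Tcf21 mark these cells and some of their descendants. The enzyme encoded by Aldh1a2 makes retinoic acid there, a signal to the growing myocardium. Upk3b, Upk1b, Msln, Krt19, Bnc1 and Lrrn4 are markers of the mesothelial or epithelial state. In the RefSeq annotation of GRCm38.p6, Tbx18 lies at chr9:87702800-87731260, Tcf21 at chr10:22817263-22820143, Wt1 at chr2:105126529-105173614, Bnc1 at chr7:81966657-81992299 and Aldh1a2 at chr9:71215789-71296243. Upk3b lies at chr5:136038496-136044993, Upk1b at chr16:38773182-38800203, Msln at chr17:25748613-25754378, Krt19 at chr11:100140810-100145926 and Lrrn4 at chr2:132866686-132894010. In whole ventricle, fewer epicardial cells and less RNA per cell cannot be told apart.

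The upstream sequences of 3 members are shown because Tbx18 is the member that passed the genotype test, Tcf21 is the other transcription factor whose KO arrays all lay above WT, and Upk3b is the mesothelial marker whose HET arrays all lay above WT. Each is the 250 bases before the start that the RefSeq promoter table gives in GRCm38.p6, 5′ to 3′ on the gene's strand. Capitals mark AGGTCA, the half-site bound by many nuclear receptors, and GGAATG, the core recognised by TEAD factors, on either strand.
Tbx18, chr9:87731261-87731510, minus strand: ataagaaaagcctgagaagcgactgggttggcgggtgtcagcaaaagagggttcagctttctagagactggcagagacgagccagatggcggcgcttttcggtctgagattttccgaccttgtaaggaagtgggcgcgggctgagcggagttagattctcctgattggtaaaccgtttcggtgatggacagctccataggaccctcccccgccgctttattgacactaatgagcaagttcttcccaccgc
Tcf21, chr10:22820144-22820393, minus strand: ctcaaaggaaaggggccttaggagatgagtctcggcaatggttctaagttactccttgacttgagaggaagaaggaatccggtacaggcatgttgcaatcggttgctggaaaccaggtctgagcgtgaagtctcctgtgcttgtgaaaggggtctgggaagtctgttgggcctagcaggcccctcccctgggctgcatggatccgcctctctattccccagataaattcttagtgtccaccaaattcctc
Upk3b, chr5:136038246-136038495, plus strand: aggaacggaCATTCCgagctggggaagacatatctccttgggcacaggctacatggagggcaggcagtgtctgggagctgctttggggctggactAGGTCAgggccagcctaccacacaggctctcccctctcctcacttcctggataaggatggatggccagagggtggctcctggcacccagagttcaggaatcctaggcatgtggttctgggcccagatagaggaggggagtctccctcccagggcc
RefSeq promoters were at hand for 6 of the 10 members (Aldh1a2, Bnc1, Lrrn4, Tbx18, Tcf21 and Upk3b). The extended ERR element TNAAGGTCA was in 0 of these 6 windows and in 1.14% of all 32851 windows of that length. AGGTCA, which the extended element contains, was in those of Upk3b and Lrrn4, as was GGAATG, and over all windows the shares were 14.0% and 12.6%. The Lrrn4 window (chr2:132880863-132881112, minus strand) lies inside the gene's annotated span and not before its outer end. These are letter matches only, and a window without one says nothing about binding.

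The targeted gene followed the labels. The Esrrg probe set 1455267_at read 206 to 281 in WT, 162 to 164 in HET and 39.3 to 58.3 in KO (MAS5 signal, a linear intensity), with no overlap between genotypes. On 2 further, dim Esrrg probe sets WT and KO overlapped. Array medians ran from 36.6 to 45.9. The ventricular light chain gene Myl2 read 25620 to 33307 on all arrays. Arrays also differ in a way that largely follows genotype. By the log2 ratio of the bacterial spike-ins thr and dap, WT and HET replicate 1 lie at -1.03 to -0.82 and the other 5 arrays at -1.35 to -1.21. These sets are called array batches here. The split was known from earlier results of these data, and no label gives a run or date for it. Only HET spans both, so KO minus WT cannot be fully told apart from the batch.

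Among the transcription factors, Tbx18 was called higher in KO than in WT on 1 of its 2 probe sets. Both probe sets also split by array batch, as given below. Tbx18, a T-box factor of the proepicardium and later of mural cells, also marks the sinus horns. Probe set 1429974_at read 263, 218 and 195 on the WT arrays, 269.7, 431 and 410.4 on the HET arrays, and 399.5, 488 and 365 on the KO arrays. All KO arrays and all HET arrays lay above all WT arrays, while HET and KO overlapped. The mean went from 225 ± 34.2 in WT to 417 ± 63.8 in KO (SD, n = 3 each), a ratio of 1.85. On the log2(signal + 16) scale the difference was 0.84 ± 0.18 (standard error; limma, adjusted p = 0.0481). An exact permutation test over the 3 WT and 3 KO arrays (two-sided) gave p = 0.1, its smallest possible value.

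The second Tbx18 probe set separated KO from both other genotypes. Probe set 1449871_at read 214, 195 and 156 on the WT arrays, 186, 216 and 225 on the HET arrays, and 262, 296 and 252 on the KO arrays. Every KO array was above every WT and every HET array, and WT overlapped with HET. KO minus WT came to 0.49 ± 0.15, short of the threshold (limma, adjusted p = 0.127). KO minus HET was 0.35 ± 0.15 (limma, adjusted p = 0.993).

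The Tbx18 values split by array batch, and WT and KO share no batch. On both probe sets the 5 arrays of the second batch lay above the 4 of the first, as 6.13% of the 27022 probe sets tested do. HET replicates 2 and 3 exceeded HET replicate 1 by 0.61 for 1429974_at and by 0.23 for 1449871_at. With the batch as a block, KO minus WT fell from 0.84 to 0.23 ± 0.25 for 1429974_at (limma, adjusted p = 0.926), and 1449871_at gave 0.26 ± 0.27. The block is estimated from HET alone, whose only array in the first batch is replicate 1, so the block values rest on that array. Within the first batch HET replicate 1 minus WT was 0.25 for 1429974_at and -0.01 for 1449871_at. Within the second batch KO minus HET was -0.02 for 1429974_at and 0.27 for 1449871_at. The call for 1429974_at was kept in 8 of 21 alternative settings. It was lost without any one of the 6 WT or KO arrays (limma, adjusted p from 0.0691 to 0.192). It was kept without any one HET array (limma, adjusted p from 0.00242 to 0.0436).

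Tcf21, a basic helix-loop-helix factor of the epicardium and of cardiac fibroblasts, was higher in KO than in WT on all arrays without passing the test. Probe set 1417447_at read 1239.9, 1529 and 1105 on the WT arrays, 1449, 1664 and 1417 on the HET arrays, and 1544, 1559.7 and 1633 on the KO arrays. The lowest KO array stood just above the highest WT array. The difference of 0.30 ± 0.11 (limma, adjusted p = 0.184) became 0.22 ± 0.19 once the batch was a block. The other Tcf21 probe set, 1458887_at, was dim, at 12.2 to 61.9 over the 9 arrays, and its genotypes overlapped.

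Wt1, the zinc finger factor of the epicardium, read 52.9, 86.8 and 61.9 on the WT arrays, 51.3, 94.0 and 79.1 on the HET arrays, and 90.0, 100.4 and 67.6 on the KO arrays. The genotypes overlapped. KO minus WT was 0.30 ± 0.26 (95% interval -0.24 to 0.85; limma, adjusted p = 0.633), so a change of either sign lies within the interval.

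**Figure D1:**
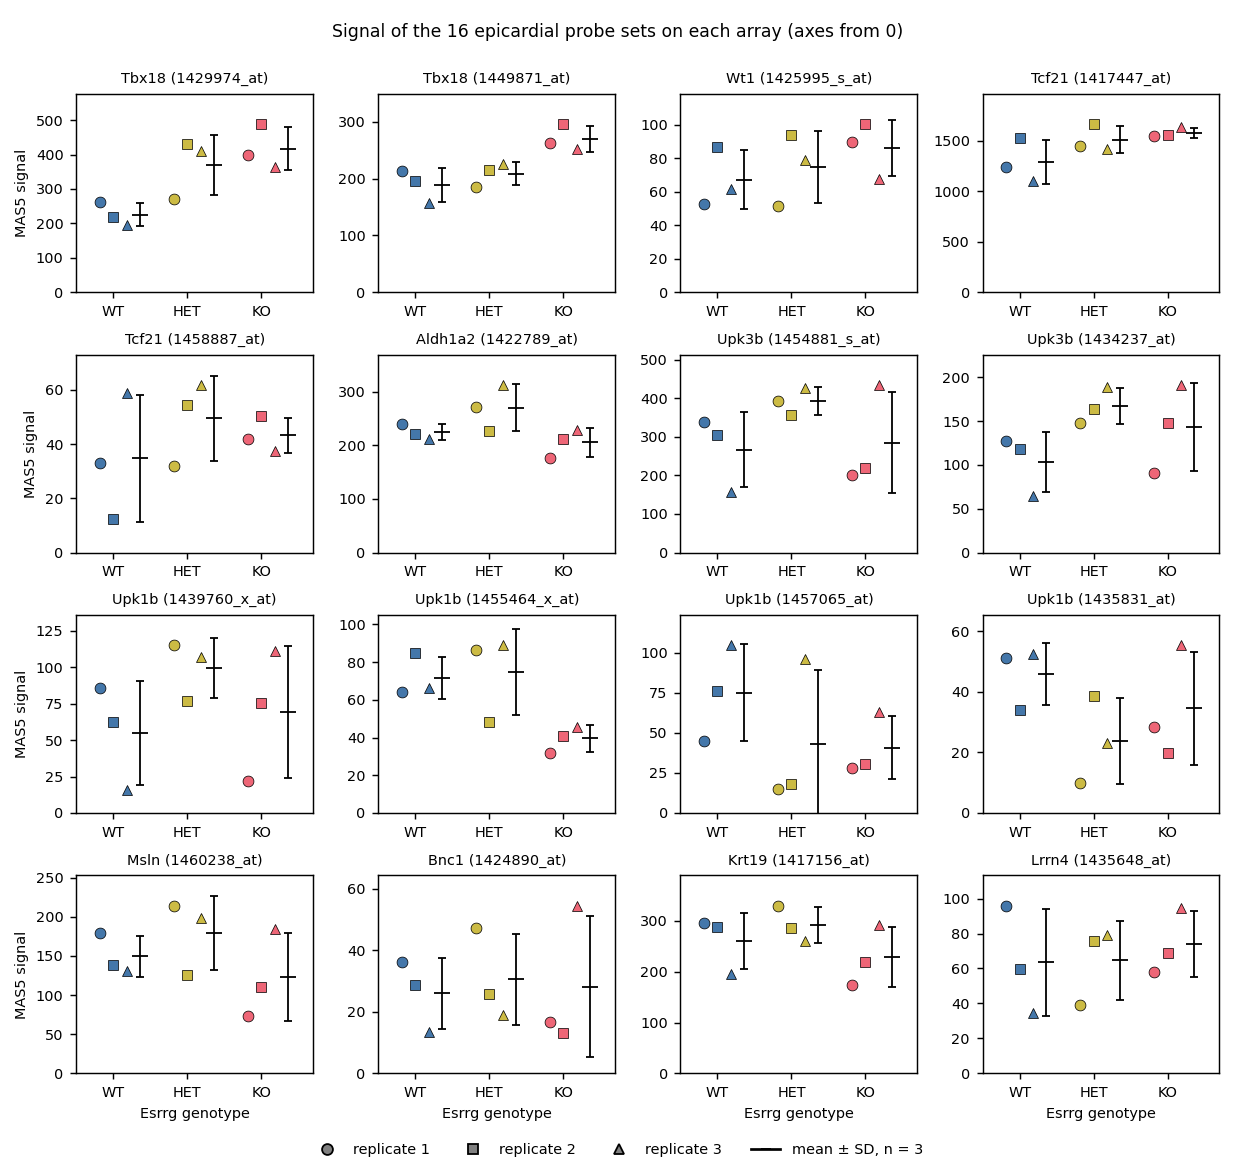
MAS5 signal (vertical axes, from 0) of the 16 epicardial probe sets by Esrrg genotype; each point is 1 array, marker shapes give the replicate, and bars are mean ± SD over 3 arrays. KO lies above WT without overlap for both Tbx18 probe sets and Tcf21 1417447_at, and below it for Upk1b 1455464_x_at.

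Aldh1a2, which encodes the retinaldehyde dehydrogenase that supplies retinoic acid, read 240.4, 221 and 211 on the WT arrays, 272, 226 and 313 on the HET arrays, and 176, 212 and 229 on the KO arrays. The HET mean of 271 ± 43.5 was above those of WT (224 ± 14.9) and KO (206 ± 27.1), but HET replicate 2 fell among the other arrays. HET minus the mean of WT and KO was 0.31 ± 0.13 (limma, adjusted p = 0.982), and KO minus WT was -0.12 ± 0.16 (adjusted p = 0.784).

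The uroplakin genes Upk3b and Upk1b encode membrane proteins first known from the urothelium that also mark mesothelium. Upk3b probe set 1454881_s_at read 339, 306 and 156 on the WT arrays, 394, 356 and 428 on the HET arrays, and 201, 219 and 435 on the KO arrays. Every HET array lay above every WT array, whereas KO overlapped with both, with replicate 3 above all HET arrays. HET minus WT was 0.59 ± 0.27 (limma, adjusted p = 0.45) and KO minus WT was 0.08 ± 0.27 (adjusted p = 0.936).

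Upk3b probe set 1434237_at gave the same order of WT and HET. It read 127, 119 and 64.4 on the WT arrays, 148, 164 and 189 on the HET arrays, and 91.1, 148 and 192 on the KO arrays, so HET was above WT without overlap and KO overlapped with both. HET minus WT was 0.66 ± 0.26 (limma, adjusted p = 0.40; 95% interval 0.11 to 1.20). Within the first batch HET replicate 1 minus WT was 0.60 for 1454881_s_at and 0.51 for 1434237_at.

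The 4 Upk1b probe sets did not follow one another. Probe set 1439760_x_at read 85.8, 62.7 and 15.8 on the WT arrays, 115, 76.5 and 107 on the HET arrays, and 21.7, 75.2 and 111 on the KO arrays, with all genotypes overlapping. Probe set 1455464_x_at read 64.1, 84.6 and 66.5 on the WT arrays, 86.4, 48.3 and 89.0 on the HET arrays, and 31.9, 40.7 and 45.8 on the KO arrays, so KO was below both other genotypes without overlap. Its KO minus WT difference was -0.66 ± 0.27 (limma, adjusted p = 0.232), and KO minus HET was -0.68 ± 0.27 (adjusted p = 0.993). Probe sets 1457065_at (14.9 to 105 over the 9 arrays) and 1435831_at (9.92 to 55.4) had HET below WT in the mean, where 1439760_x_at had HET above it. Probe sets whose names end in _x_at can hybridise with other transcripts. Because the 4 probe sets differed in direction, none is given for Upk1b.

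Msln encodes mesothelin, a surface glycoprotein of mesothelial cells. It read 179.6, 138 and 131 on the WT arrays, 214, 125 and 198 on the HET arrays, and 73.8, 111 and 184 on the KO arrays. The genotypes overlapped, and KO minus WT was -0.32 ± 0.26 (95% interval -0.88 to 0.24; limma, adjusted p = 0.614).

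Krt19, a keratin of simple epithelia, read 296, 288 and 197 on the WT arrays, 330.2, 286 and 259.7 on the HET arrays, and 174, 219.7 and 291 on the KO arrays. Its genotypes overlapped as well (KO minus WT -0.18 ± 0.19, limma, adjusted p = 0.711).

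Bnc1, which encodes the zinc finger protein basonuclin, was dim at 13.2 to 54.5, and its KO minus WT difference was -0.01 ± 0.43 (limma, adjusted p = 0.996). Lrrn4, a gene for a leucine-rich repeat membrane protein used as a mesothelial marker, read 34.7 to 95.9 in WT, 38.9 to 79.2 in HET and 57.8 to 94.8 in KO. Its difference was 0.23 ± 0.32 (limma, adjusted p = 0.798). The intervals of both genes, -0.92 to 0.90 and -0.44 to 0.90, leave room for changes of either sign.

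Over all 16 probe sets, which passed the filter on dim values without exception, limma called 1 between KO and WT (Tbx18 1429974_at, higher in KO), against 0.633% of the 27022 probe sets tested. A rise was called in 0.392% of these. Differences were above 0 for 9 of 16, where 52.2% of all tested were, with a median of 0.15 against 0.02 over all. KO and WT arrays did not overlap for 4 of 16, 3 higher and 1 lower, and for 23% of all tested (12.1% higher, 10.8% lower). The median over the members was -0.20 without WT replicate 3 and -0.15 without KO replicate 3.

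Between HET and WT, limma called 0 of 16 and 0% of all tested. At an unadjusted p under 0.05 there were 3 of 16 and 2896 of 27022 (10.7%). HET minus WT was above 0 for 14 of 16, with a median of 0.19, and for 53.4% of all tested, with a median of 0.02. Arrays did not overlap for 3 of 16, all higher in HET, and for 12.9% of all tested (6.93% higher, 5.98% lower). Without WT replicate 3, 10 of 16 were above 0 and the median was 0.10. Without HET replicate 1, Tbx18 1429974_at was called higher in HET (0.86 ± 0.16, limma, adjusted p = 0.00528), 1 of 1183 calls among the 27022 probe sets in that fit. That fit leaves HET wholly in the second array batch and WT in the first. Genotype and batch cannot be told apart in it. With the batch as a block over all arrays, HET minus WT for this probe set was 0.25 ± 0.20 (limma, adjusted p = 0.822).

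KO minus HET had 0 of 16 called by limma, where 0.0074% of all tested were, with 3 of 16 at an unadjusted p under 0.05 (4.35% over all). It was above 0 for 7 of 16, against 48.6% of all. KO lay above HET without overlap for 1 of 16 (Tbx18 1449871_at; 4.66% over all) and below it for 1 (Upk1b 1455464_x_at; 5.58%), where 10.2% of all tested did either. The 3 comparisons share arrays, so their counts are not independent of one another.

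**Figure D2:**
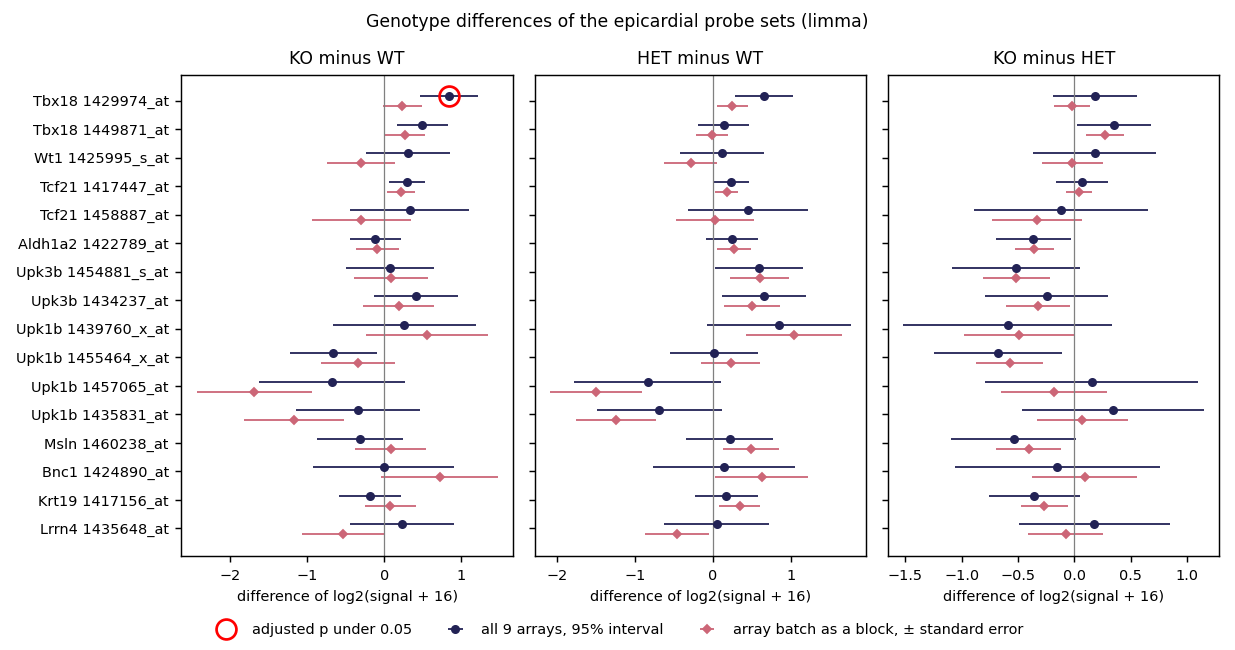
Differences of log2(signal + 16) for the 16 probe sets in KO minus WT, HET minus WT and KO minus HET; circles are the fit over 9 arrays with 95% intervals, diamonds the fit with the array batch as a block with its standard error. Only Tbx18 1429974_at in KO minus WT (0.84) is ringed as called, and it lies at 0.23 with the block.

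That HET may lie above both other genotypes was raised by earlier results of these data, so its levels are a description and support nothing. The HET mean exceeded the WT and KO means for 9 of 16 probe sets and 6 of 10 genes by their brightest probe set (Aldh1a2, Upk3b, Upk1b, Msln, Bnc1 and Krt19). For Upk1b this rests on 1439760_x_at, while 1435831_at had its HET mean below both others. Over all tested it did so for 31.4%. It was below both for 1 of 16, against 25.7%. For 0 of 16 did every HET array exceed every WT and KO array, against 1.16% of all tested. The contrast of HET with the mean of WT and KO called 0 of 16 and 0% of all with limma. At an unadjusted p under 0.05 it had 2 of 16 (Upk3b 1454881_s_at and Aldh1a2) and 1147 of 27022 (4.24%). Its median over the members was 0.25, and 0.01 over all tested.

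Spread within a genotype was wide for several mesothelial markers, and the low values of many members fell on the same arrays. WT replicate 3 was the lowest WT array for 11 of 16 probe sets and KO replicate 1 the lowest KO array for 10. These shares were 34.5% and 32.2% over all tested. Both held for 8 of 16, those of Tcf21 1417447_at, Aldh1a2, both Upk3b probe sets, Upk1b 1439760_x_at, Msln, Krt19 and Lrrn4, and for 10.4% of all tested. KO replicate 3 was the highest KO array for 12 of 16, against 34.7%. On Upk1b 1457065_at and 1435831_at, WT replicate 3 was instead the highest WT array. Over all probe sets other than controls, WT replicate 3 correlated least with the other arrays (Pearson r = 0.946 to 0.951). It also had the highest array median (45.9). The part of this in the member values was not tested. Probe sets of 1 gene are not independent here, and these arrays were singled out after their values were seen. The summed signal of the 10 genes was 2829, 2938 and 2122 on the WT arrays, 3182, 3361 and 3311 on the HET arrays, and 2755, 3067 and 3466 on the KO arrays, so HET lay above WT without overlap and KO overlapped with both. Tcf21 1417447_at supplied 1105 to 1664 of these sums. In an alternative added after the data were seen, Tcf21 was left out of the sum. It was then 1589, 1409 and 1016 on the WT arrays, 1732, 1697 and 1894 on the HET arrays, and 1211, 1507 and 1832 on the KO arrays. HET lay above WT without overlap, but this sum reuses 9 of the same genes and is a description only. The sums of further epicardial genes and of retinoic acid pathway genes, given below, also had HET above WT without overlap.

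**Figure D3:**
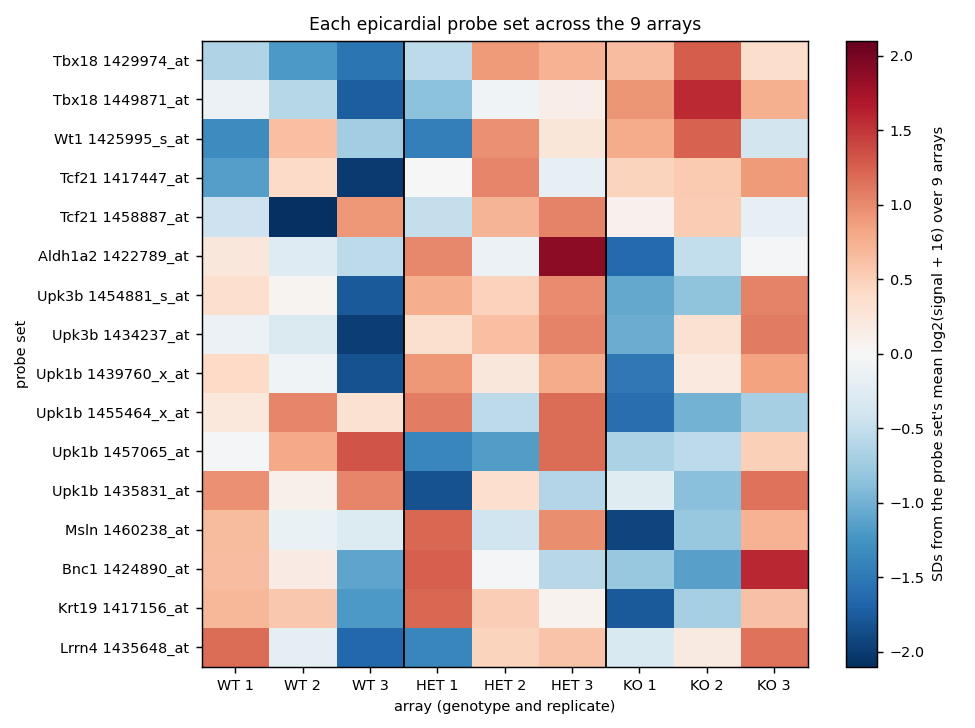
Each row is 1 epicardial probe set and each column 1 array; colour gives the distance from the row's mean of log2(signal + 16) in SDs, red higher and blue lower. WT replicate 3 is the lowest WT array in 11 of 16 rows and KO replicate 1 the lowest KO array in 10, while in both Tbx18 rows the KO arrays are above all WT arrays.

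Other genes tied to the epicardium gave 0 calls in any comparison. Of 22 further epicardial and mesothelial genes 15 were tested. Of these 13 were above 0 in KO minus WT (median 0.34) and 13 in HET minus WT (median 0.31). Over all probe sets tested the shares were 52.2% and 53.4%, each with a median of 0.02. Both comparisons share the WT arrays, so these counts are not independent. The summed signal of the 21 genes on the array was 4405 to 5022 in WT, 5426 to 5986 in HET and 5184 to 5753 in KO. Both HET and KO thus lay above WT without overlap. Igfbp5 supplied 1791 to 2843 of these sums. Gpm6a, a neuronal and mesothelial membrane glycoprotein gene, read 65.9, 59.6 and 33.8 on the WT arrays, 80.5, 97.5 and 101.7 on the HET arrays, and 73.5, 109.7 and 137 on the KO arrays. It did not overlap between WT and either other genotype (KO minus WT 0.83 ± 0.26, limma, adjusted p = 0.125). Igfbp5, a binding protein of insulin-like growth factors, also lay above WT on all HET and KO arrays (HET minus WT 0.39 ± 0.10, limma, adjusted p = 0.325).

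In the retinoic acid pathway 10 of 18 genes were tested, with 7 above 0 in KO minus WT (median 0.22) and 8 in HET minus WT (0.23). Over all probe sets tested these shares were 52.2% and 53.4%. The summed signal of the 16 genes on the array was 1946 to 2075 in WT, 2161 to 2416 in HET and 2118 to 2500 in KO. Here too HET and KO both lay above WT without overlap. Aldh1a1, another retinaldehyde dehydrogenase, was dim and read 6.81 to 42.0 in WT, 39.4 to 82.2 in HET and 42.1 to 63.0 in KO (HET minus WT 1.14 ± 0.37, limma, adjusted p = 0.347). The transcription factor gene Hic1 gave 0.41 ± 0.19 in HET minus WT (limma, adjusted p = 0.459). Among 21 genes of epicardial signalling and epithelial-mesenchymal transition, 13 were above 0 in KO minus WT (median 0.10), against 52.2% of all tested. Fgf9, a growth factor of the epicardium and endocardium, was below WT on every HET and KO array (KO minus WT -0.74 ± 0.17, limma, adjusted p = 0.061), and Pdgfra, a receptor of epicardium-derived fibroblasts, was above it on every KO array (0.48 ± 0.13, adjusted p = 0.0838). Pdgfra read 324 on HET replicate 1, of the first array batch, and 383 and 396 on the other HET arrays. The part of the batch was not tested for it.

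Markers of other cells were summed on each array beside these values. The fibroblast list summed to 37474 to 42939 in WT, 36992 to 42030 in HET and 41550 to 43803 in KO, and 0 of its 12 genes was called. In KO minus WT 8 of the 12 were above 0 (median 0.07), against 52.2% of all tested. Lum (0.33) and Col3a1 (0.22) had the lowest p of this list. The mural cell list read 20637 to 22490, 22114 to 23488 and 22673 to 24868. Acta2 (0.24 in KO minus WT) and Abcc9 (0.32 in HET minus WT) had its lowest p. In each of these comparisons 5 of its 10 genes were above 0, with a median of 0.04. The cardiomyocyte list read 143671 to 151361 in WT, 132570 to 143738 in HET and 130681 to 140118 in KO. So KO lay below WT without overlap. Mybpc3 (-0.22) and Myh7 (-0.17) had its lowest p, and 3 of its 10 genes were above 0 in KO minus WT (median -0.10). The cardiomyocyte sum also split by array batch. It was 143738 on HET replicate 1, of the first batch, and 135854 and 132570 on the other HET arrays. The part of the batch in this sum was not tested. The part of these lists in the Tbx18 difference was not tested. In the endothelial list 1 of 9 genes was called in KO minus WT, against 0.633% of all probe sets tested (0.241% lower). It was the receptor gene Kdr, with a mean of 1104 in WT and 655 in KO (-0.74 ± 0.14, limma, adjusted p = 0.0406). On the HET arrays Kdr read 1095 on replicate 1, of the first batch, and 881 and 682 on the others, and the part of the batch was not tested for it.

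Tissues that lie beside the heart left little signal. All 8 genes of the lung epithelium list read at most 69.3 on every array, with Sftpc at 5.79 to 56.1. The liver list read at most 147, with Alb at 19.6 to 66.3, and the thymus list at most 63.6. Their sums were 73.6 to 219.9, 136 to 309 and 72.7 to 227. HET had the highest sums of lung (138.4 to 219.9, against 73.6 to 138.3 in WT and 99.4 to 136 in KO). The same held for liver (222 to 309, against 165 to 214 and 136 to 208). Most of these genes were dim, as 2 of 8 lung genes and 3 of 7 liver genes on the array passed the filter. The part of these tissues in the HET values was not tested. In 5 further lists 0 genes were called, and those of lowest p were Hey2 (0.86), Myl3 (-0.14), Nppa (0.24), Myl7 (0.29), Fabp4 (-0.07) and Eln (-0.28) in KO minus WT, Csf1r (0.34) in HET minus WT, and Adgre1 (0.33), Cidea (-0.26) and Col9a1 (-0.55) in HET minus the mean of WT and KO. In the lung, liver and thymus lists they were Sftpc (0.49) and Apoa2 (0.83) in HET minus WT, and Napsa (-0.41), Ahsg (-0.55), Foxn1 (-0.47) and Cd8a (-0.36) in KO minus WT. Hey2 read 316 on HET replicate 1, of the first array batch, and 677 and 716 on the other HET arrays. The part of the batch in its difference was not tested.

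**Figure D4:**
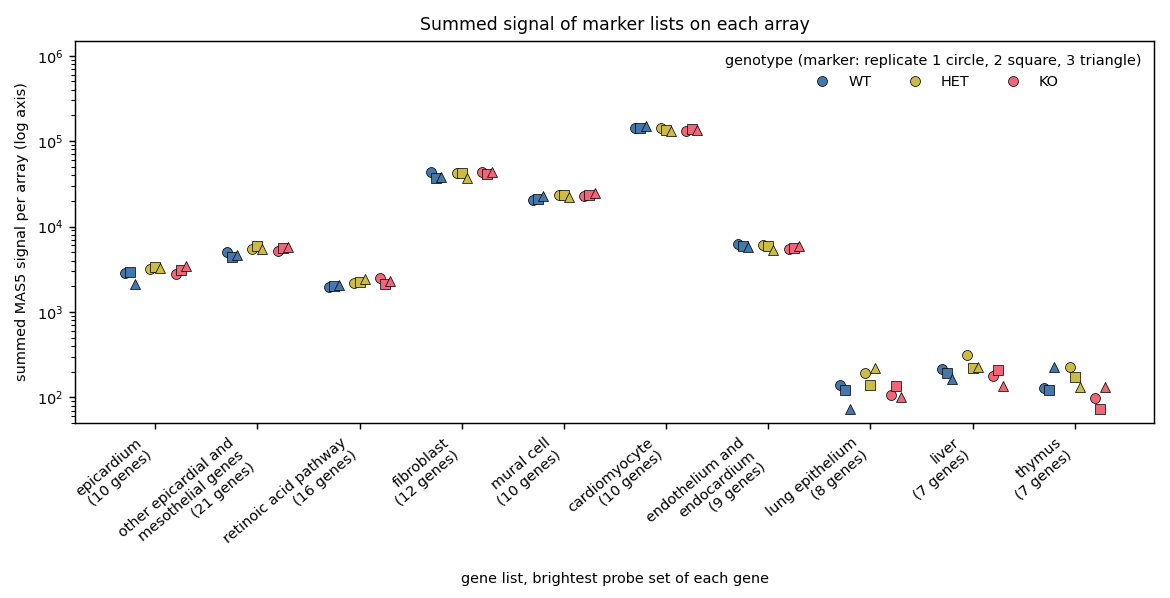
Summed MAS5 signal per array (log axis) of 10 gene lists by Esrrg genotype, each gene read by its brightest probe set; points are arrays and shapes give the replicate. The epicardial list has its lowest array in WT replicate 3 (2122), and the lung, liver and thymus lists stay between 72.7 and 309.

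Of 13018 other genes, those whose brightest probe set most resembled the mean standardised profile of the 10 members were Sec24b (Pearson r = 0.95 over 9 arrays), Neurl1b (0.93), Adcyap1r1 (0.91), Adamts4 (0.89), 9430037G07Rik (0.89) and Egf (0.89). They are the top of a ranking over all genes and are given as a description, with no test. Sec24b, a subunit of the COPII vesicle coat, read 193, 164 and 117 on the WT arrays, 188, 243 and 247 on the HET arrays, and 143, 195 and 252 on the KO arrays, with the same low WT replicate 3 and KO replicate 1.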

How the data were processed

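Total RNA (6 µg per array) was measured on 9 Affymetrix mouse arrays of 45101 probe sets. The deposited intensities are MAS5 signals, per the submitters' processing notes, which name no version. Each column's 2% trimmed mean is 200, so the authors scaled each array to one mean. Precision is limited by having 3 arrays a genotype.

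Gene names come from the platform table, brought up to date through gene IDs (34945 of 45037 probe sets name 1 gene). Differences were fitted to log2(signal + 16), a scale that shrinks changes of dim genes, with limma 3.58.1 in R 4.3.3 (1 mean per genotype over 9 arrays, eBayes with an intensity trend, two-sided). Benjamini-Hochberg adjustment ran over the 27022 probe sets at or above the 40th percentile of mean log2 value (signal 21.7), with calls at an adjusted p under 0.05. The array batch was set at the widest gap in the thr to dap ratio.

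The members and lists were chosen with earlier results of these data known. Text names every member probe set, Esrrg, called genes of the other lists (otherwise the 2 of lowest p over KO minus WT, HET minus WT and HET minus the mean of WT and KO), and the 6 genes of most similar profile. Same-numbered replicates did not deviate together (correlations -0.04 to 0.04). In 5 simulated draws of KO minus WT over 27022 probe sets, the fit found 39.4% of 2-fold and 13.4% of 1.5-fold changes, so changes of either size mostly go uncalled. Figures used matplotlib 3.10.9 in Python 3.11.15.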

Additional observations from a re-analysis of the deposited data

How the results depend on the processing

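The single epicardial call between KO and WT depended on the setting. The count of 1 became 0 with quantile normalization, with arrays shifted to one median, with a pseudocount of 1, with a filter at the 60th percentile, without the intensity trend and with the array batch as a block. With the replicate number as a block it was 0 too (Tbx18 1429974_at, limma, adjusted p = 0.0573). Leaving out each array in turn gave 0 to 1 for KO minus WT and 0 to 1 for HET minus WT, the 1 arising without HET replicate 1. Of 1284 values of single probe sets under the 21 alternatives, 1270 kept their side of the threshold, 13 lost it and 1 gained it. All 13 losses were of Tbx18 1429974_at in KO minus WT. No other probe set had a call to lose, so the 1270 do not measure how stable that call was.

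Over all probe sets, KO minus WT had 171 calls (106 higher, 65 lower). It had 14 (6 higher, 8 lower) with arrays shifted to one median, 41 with a pseudocount of 1, 112 with a filter at the 60th percentile, 0 without the trend, 1006 with array weights, 1438 with only the arrays compared, 84 with the replicate block, 1 with the batch block and 11 to 1579 with an array left out. HET minus WT had 0 calls, 4 with the batch block and 1183 without HET replicate 1, and HET minus the mean of WT and KO had 0, and 55 without that array. Without HET replicate 1 the HET arrays are all of the second batch and the WT arrays all of the first. The 1183 calls cannot be told apart from the batch.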
